A study of Rattus norvegicus with 12 samples.

Results

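The block described here is a run of genes on rat chromosome 14 that gave more signal in the CRI-G1-RS line than in the CRI-G1-RR line. Its 53 listed genes, from Abraxas1 to Chic2, were chosen by that difference and by lying together on the chromosome, so their own RS against RR values are given as a description, with no test. Of the 53 members, 50 had a probe set that carries their symbol alone, out of 14218 genes measured in this way. Scd5, Paqr3 and Paics had none and have no values here. CRI-G1 cells are a line from a transplantable islet tumour of the rat. CRI-G1-RS is a rotenone-susceptible subclone, frozen as a line of its own after a single spontaneous change in long-term dense culture, and CRI-G1-RR is the rotenone-resistant original clone, so each line stands for 1 clone. Neither line was treated, and both were grown in the same high-glucose serum medium. RNA from 6 passages of each line, collected in pairs, was hybridized to 12 Affymetrix Rat 230 2.0 arrays, and no label says that passages came from separate isolates.

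The listed genes belong to no single pathway. They include RNA-binding proteins, a subunit of RNA polymerase II, subunits of complexes that degrade or modify proteins, enzymes of nucleotide synthesis, parts of the secretory pathway, the circadian factor Clock, the repressor Rest of neuronal genes, and the receptor tyrosine kinases Kit, Kdr and Pdgfra, whose genes lie side by side in mammals. Many of these proteins act as subunits beside partners that are encoded elsewhere in the genome. Neighbouring genes on a chromosome can share promoters, chromatin state and dosage while having unrelated functions.

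The signals used are linear probe-set intensities as deposited, and lowest, median and highest values below are these signals over the 6 arrays of a line. A log2 change is the RS mean minus the RR mean of log2(signal + 16) after quantile normalization, with its standard error (SE). A change of 1 is a signal 2 times as high in RS cells, and the added 16 shrinks the changes of weak signals. A gene was called when its adjusted p in limma, corrected after Benjamini and Hochberg for the 31099 probe sets, was under 0.05. The brightest probe set of a gene stands for it, and a gene is bright where its mean signal over all 12 arrays is 100 or more. By this rule 37 of the 50 measured members were bright and 13 were dim.

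Arrays of RS cells correlated at 0.978 to 0.987 with each other, arrays of RR cells at 0.979 to 0.987, and arrays of different lines at 0.952 to 0.965. Of 16 measured islet markers, 13 were bright, on a mean over both lines that does not show a marker in each. Gcg had signals of 5974 to 7563 in RS and 6860 to 7766 in RR cells. Nkx6-1, also bright, had 123 to 177 in RS and 26.3 to 75.9 in RR cells. Of the 16, 8 were called higher in RS cells, with Ins2 at 1.30, and 1 lower, Pax6 at -0.46. The paper's qRT-PCR did not detect Ins2 in RR samples, while the arrays gave it 541 to 1041 there. Of the markers of other cells, 1 of 7 endothelial genes, 2 of 9 mesenchymal genes, and no gene among 11 haematopoietic or 9 exocrine ones, reached a mean signal of 100. The 2 lines differed at many genes, with 9860 probe sets called, 5083 of them higher and 4777 lower in RS cells.

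Nearly all bright members had more signal in RS cells. Of the 37, 35 had a positive log2 change and 29 were called higher, where 28.6% of all bright genes were called higher. That count restates how the members were chosen. The median log2 change of the bright members was 0.54, with the middle 50% between 0.35 and 0.69 and a range of -0.05 to 1.66, beside a median of 0.03 over all 8684 bright genes. In 25 of the 37, every RS array lay above every RR array, a pattern that 21.0% of bright genes showed. From bulk RNA, a change in all cells and a change in a part of them cannot be told apart.

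**Figure D1:**
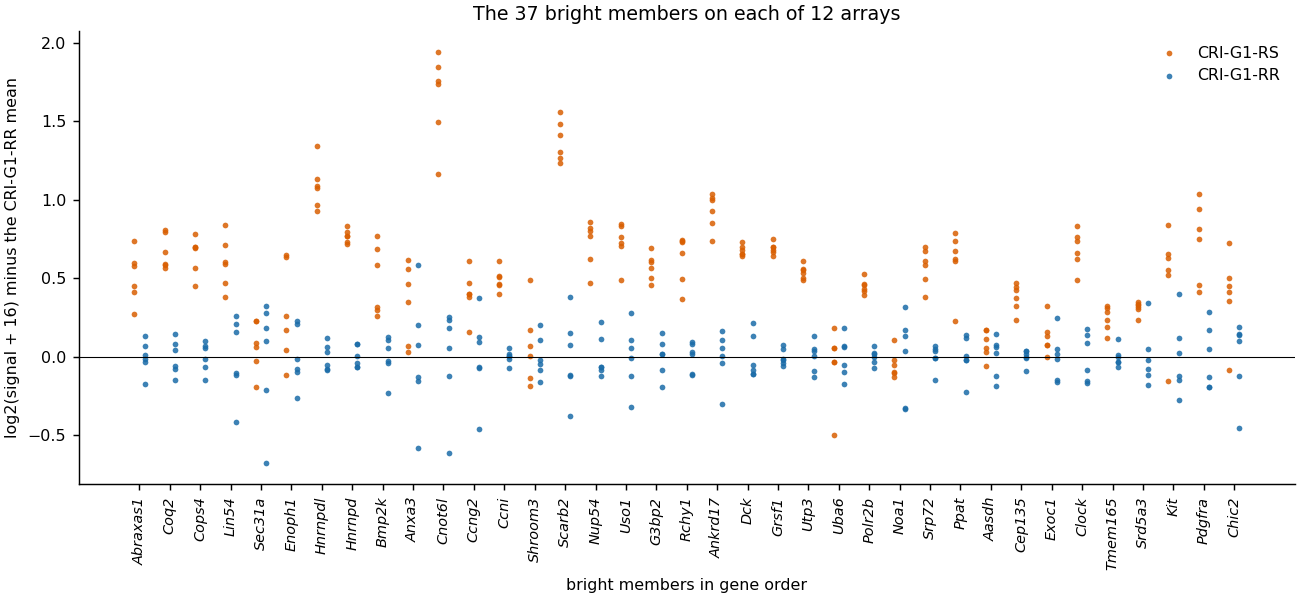
Each bright member on each array, as log2(signal + 16) after quantile normalization minus the mean of the 6 CRI-G1-RR arrays, in gene order from left to right. CRI-G1-RS arrays are orange and drawn left of the blue CRI-G1-RR arrays. The orange points of 25 members lie wholly above the blue ones, Cnot6l and Scarb2 reach highest, and the points of Uba6, Noa1, Sec31a and Shroom3 overlap.

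The shift for which the members were chosen was present on each array. Taken per array as the median deviation of the bright members from their RR mean, it was 0.49 to 0.63 on the 6 RS arrays and -0.04 to 0.06 on the 6 RR arrays. These array medians did not overlap between the lines, which restates how the members were chosen. Bright genes elsewhere, not chosen for the difference, had far smaller array medians. They were 0.014 to 0.052 in RS cells and -0.004 to 0.006 in RR cells. Those did not overlap either, so non-overlap alone does not set the members apart. The 13 dim members gave array medians of 0.14 to 0.30 in RS cells and of -0.05 to 0.20 in RR cells, and these overlapped.

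Proteins of RNA binding and turnover made up 3 of the 6 bright members with the widest difference. Cnot6l, a deadenylase that shortens the poly(A) tails of mRNAs within the CCR4-NOT complex, had signals of 182, 281 and 323 (lowest, median and highest array) in RS cells, against 41.8, 76.4 and 92.5 in RR cells. Its lowest RS array was above its highest RR array, and its log2 change of 1.66 (SE 0.16) was the largest of the 50. A weaker probe set of Cnot6l, with a mean signal of 27.3, changed by 0.39. Hnrnpdl, which binds AU-rich RNA, had signals of 2397, 2702 and 3329 in RS cells, against 1222, 1283 and 1377 in RR cells. The lines did not overlap, and the log2 change was 1.09 (SE 0.07).

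Hnrnpdl is also a member whose probe sets disagreed. Its weaker probe sets, with mean signals of 587 and 76.9, changed by -0.11 and 0.43, so the increase was not seen across all of its measured sequence. Hnrnpd, a close relative that also binds AU-rich elements and is known as AUF1, gave 1589, 1646 and 1737 in RS cells, against 910, 947 and 1016 in RR cells. The lines were again apart, at a log2 change of 0.77 (SE 0.05). Grsf1, which binds G-rich RNA in mitochondrial granules, changed by 0.69, and the stress-granule protein G3bp2 by 0.57, with 1.24 from its other probe set. All 5 members of this group, which was put together after the values were seen, were called higher. So were 29 of the 37 bright members and 28.6% of all bright genes.

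Hnrnpdl starts close to Enoph1, an enzyme of methionine salvage, on the opposite strand. Among the RefSeq promoter windows of build GRCr8, 250 bases before to 50 after a start, 49 members matched with 55 windows, and 3 neighbouring pairs were found to be divergent with starts 257 to 348 bases apart. They are shown because the genes of a pair have start regions in common but did not all change alike. The starts of Enoph1 and Hnrnpdl lie 257 bases apart and their windows share 244 bases. Those of Uso1 and G3bp2 lie 295 bases apart and share 206, and those of Polr2b and Noa1 lie 348 bases apart and share 153. One window of each pair is printed 5′ to 3′ in the direction of the named gene, and capitals mark the E-box CACGTG and the ETS-type motif CCGGAA on either strand (TTCCGG). These motifs do not overlap each other.
Hnrnpdl, chr14:9861466-9861765, plus strand: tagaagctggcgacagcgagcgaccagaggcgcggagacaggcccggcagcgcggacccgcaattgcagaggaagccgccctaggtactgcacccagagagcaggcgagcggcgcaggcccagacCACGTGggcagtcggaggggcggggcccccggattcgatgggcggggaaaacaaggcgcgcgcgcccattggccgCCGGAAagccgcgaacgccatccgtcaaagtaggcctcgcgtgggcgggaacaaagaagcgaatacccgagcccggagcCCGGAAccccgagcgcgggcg
G3bp2, chr14:16216434-16216733, plus strand: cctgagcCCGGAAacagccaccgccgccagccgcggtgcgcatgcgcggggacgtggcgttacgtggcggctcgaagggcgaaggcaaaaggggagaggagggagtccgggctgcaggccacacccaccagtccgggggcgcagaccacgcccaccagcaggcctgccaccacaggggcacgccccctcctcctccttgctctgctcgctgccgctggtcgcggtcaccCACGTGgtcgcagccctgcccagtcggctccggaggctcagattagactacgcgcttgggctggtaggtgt
Noa1, chr14:31189320-31189619, plus strand: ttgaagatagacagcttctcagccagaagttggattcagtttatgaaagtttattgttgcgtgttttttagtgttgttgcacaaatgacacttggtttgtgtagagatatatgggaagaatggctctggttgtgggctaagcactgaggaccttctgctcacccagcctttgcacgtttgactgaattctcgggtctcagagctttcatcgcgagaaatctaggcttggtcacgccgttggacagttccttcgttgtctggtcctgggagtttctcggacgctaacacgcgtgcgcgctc

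Within the first pair Enoph1 changed by 0.27 (SE 0.14), was not called, and had overlapping arrays, at 208 to 365 in RS and 185 to 272 in RR cells. Hnrnpdl changed by 1.09 in its brightest probe set but by -0.11 in the next, so the order within this pair depends on the probe set. Within the second, both genes were higher, Uso1 by 0.73 and G3bp2 by 0.57. In the third pair Polr2b changed by 0.45 and Noa1 by -0.05. The windows of the first 2 pairs were rich in CG, with 34 and 40 CG dinucleotides for Enoph1 and Hnrnpdl and 29 each for Uso1 and G3bp2, where Polr2b had 15 and Noa1 14. Over the 55 member windows the median was 25 CG and 64.3% G or C, beside 7 and 51.7% over all 33469 rat windows.

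Searched on both strands, CACGTG stood in 9 of the 55 member windows (16.4%) and in 6.42% of all windows. CCGGAA stood in 20 (36.4%) against 14.95%, the GC box GGGCGG in 40 (72.7%) against 33.1%, and CCAAT in 11 (20%) against 37.5%. These are counts of letters in windows that also differ in base composition. Windows of the divergent pairs share bases, so a site there can count for both genes. The comparison covers all rat windows, not those of bright genes alone.

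Ankrd17, a large ankyrin-repeat protein with an RNA-binding KH domain, had signals of 569, 676 and 712 in RS cells, against 268, 344 and 382 in RR cells. The lines did not overlap, the log2 change was 0.93 (SE 0.08), and its 3 other probe sets gave 0.79, 0.60 and 0.70. Genes of ribosome assembly and nuclear transport followed. Nup54, a protein of the nuclear pore's central channel, changed by 0.72, Utp3, which acts in the processing of small-subunit ribosomal RNA, by 0.54, and the dim Sdad1, a factor of large-subunit export, by 0.83.

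Among regulators of transcription, Clock, the partner of Bmal1 in the circadian oscillator, had signals of 544, 634 and 699 in RS cells, against 334, 385 and 438 in RR cells. Its lines did not overlap, and the log2 change was 0.69 (SE 0.08). Its other probe sets changed by 0.12, 0.89 and -0.07, at mean signals of 251, 24.8 and 9.78. Clock therefore rested on its brightest probe set, with the next in brightness close to 0. Lin54, the DNA-binding subunit of the MuvB core, changed by 0.60.

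Rest, which represses neuronal genes outside neurons, was among the exceptions. Its signals were 4.30, 10.8 and 28.9 in RS cells, against 9.01, 12.8 and 24.1 in RR cells. The lines overlapped throughout, and the log2 change was -0.14 (SE 0.19). Signals this weak say little about Rest mRNA in either line. A second probe set gave -0.01, at a mean signal of 4.00.

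The receptor tyrosine kinases, which pass growth-factor signals across the cell membrane, were weakly measured. Pdgfra, the PDGF receptor alpha chain, had signals of 119, 156 and 188 in RS cells, against 63.9, 83.5 and 102 in RR cells. All RS arrays lay above all RR arrays, and the log2 change was 0.74 (SE 0.13). Kit, the receptor of stem cell factor, had signals of 81.3, 142 and 175 in RS cells, against 70.9, 84.6 and 123 in RR cells. Here 1 RS array, replicate 2, lay among the RR arrays while the other 5, at 134 to 175, lay above them, and the log2 change was 0.51 (SE 0.16).

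Kdr, a VEGF receptor of endothelial cells, had signals of 16.4, 22.5 and 35.9 in RS cells, against 10.2, 15.9 and 40.0 in RR cells. These overlapped, with a log2 change of 0.18 (SE 0.18), while the other Kdr probe set, with a mean signal of 20.1, gave 0.60. Most markers of the cells in which these receptors are best known had low signals. Summed over 7 endothelial markers the signal was 492 to 634 in RS cells and 344 to 447 in RR cells, and Esam, an endothelial adhesion molecule, was the 1 marker called, at 0.76 (adjusted p = 2.1e-05). Esam made up most of that sum, with signals of 387, 398 and 406 in RS cells, against 184, 229 and 271 in RR cells, without overlap. None of the 7 was at 0, while Emcn had a mean signal of 49.9 and Pecam1, Vwf, Tie1, Tek and Cldn5 of 17.02 to 31.5. The sum over 11 haematopoietic and mast cell markers was 257 to 389 in RS cells and 261 to 391 in RR cells. That over 9 mesenchymal markers was 450 to 613 in RS cells and 392 to 523 in RR cells, with Fn1 higher by 1.05, Acta2 lower at -0.44, and Pdgfrb at a mean signal of 16.6. None of these markers was at 0 on all arrays either, and their part in the receptor values was not tested.

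**Figure D2:**
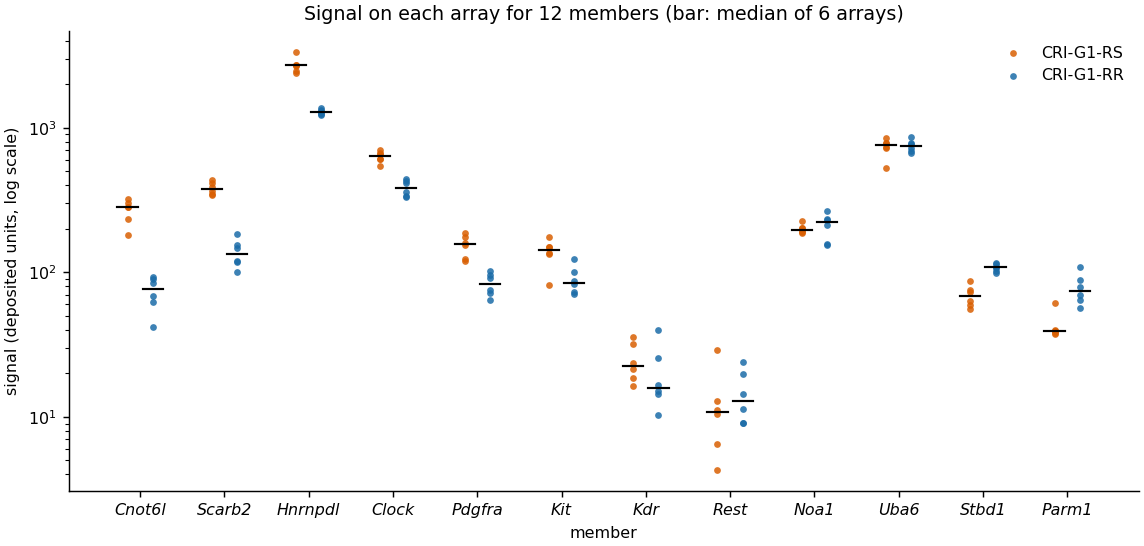
Deposited signals (log scale) of 12 members on each array, with the median of 6 arrays as a black bar; CRI-G1-RS is orange and on the left of each pair, CRI-G1-RR blue and on the right. Cnot6l, Scarb2, Hnrnpdl, Clock and Pdgfra are apart and higher in CRI-G1-RS, Kit, Kdr, Rest, Noa1 and Uba6 overlap, and Stbd1 and Parm1 are lower in CRI-G1-RS, with 1 array of Parm1 overlapping.

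In the lysosome, the members did not move as one. Scarb2, the membrane protein that carries glucocerebrosidase to lysosomes, had signals of 345, 375 and 433 in RS cells, against 101, 133 and 184 in RR cells. The lines were far apart, with a log2 change of 1.38 (SE 0.11). Stbd1, which binds glycogen and is the measured member next before Scarb2 in gene order, had signals of 55.3, 68.4 and 87.3 in RS cells, against 99.2, 108 and 116 in RR cells. This was the reverse, without overlap, at a log2 change of -0.58 (SE 0.09). Naaa, an acid amidase, changed by -0.29 (SE 0.31) and the heparan sulfate-degrading Hpse by 0.18 (SE 0.11), both with overlapping arrays.

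The secretory pathway, also grouped after the values were seen, had 6 measured members, all bright and with positive changes. Of these 4 were called higher, beside 29 of the 37 bright members and 28.6% of all bright genes. Uso1, the Golgi tether p115, changed by 0.73, Srp72 of the signal recognition particle by 0.57, the steroid and polyprenol reductase Srd5a3 by 0.31 and the Golgi ion transporter Tmem165 by 0.25. Sec31a, the outer-coat subunit of COPII vesicles, was at 159, 194 and 216 in RS cells, against 108, 202 and 236 in RR cells. Its RS arrays lay inside the RR range, and the log2 change was 0.06 (SE 0.16). Exoc1, a subunit of the exocyst, had signals of 151, 165 and 194 in RS cells, against 127, 151 and 180 in RR cells. These overlapped, at a log2 change of 0.13 (SE 0.08), and its other probe sets by 0.19, 0.27 and -0.01, the last at a mean signal of 2.34.

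Ppat, which catalyses the committed step of purine synthesis and lies next to Paics, had signals of 444, 601 and 667 in RS cells, against 314, 371 and 415 in RR cells. There was no overlap, and the log2 change was 0.61 (SE 0.10). Dck, the deoxycytidine kinase of nucleoside salvage, changed by 0.68 and Coq2, a prenyltransferase of coenzyme Q synthesis, by 0.67. Among genes of protein degradation, Cops4 of the COP9 signalosome changed by 0.65 and the ubiquitin ligase Rchy1 by 0.62.

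Uba6, an E1 enzyme that activates ubiquitin and FAT10, was a bright member with a change near 0 in its main probe set. Its signals were 522, 759 and 847 in RS cells, against 665, 743 and 858 in RR cells. The arrays overlapped, with a log2 change of -0.04 (SE 0.11). Other probe sets of Uba6 gave -0.06, 0.47 and 0.14, at mean signals of 245, 154 and 62.4. The 0.47 (SE 0.06) came from a bright probe set that passed the threshold, so the value for Uba6 depends on the probe set. Noa1, a GTPase of mitochondrial protein synthesis, had signals of 188, 197 and 225 in RS cells, against 154, 221 and 265 in RR cells. It too overlapped, at -0.05 (SE 0.11). Shroom3, which shapes epithelial cells through actin, had signals of 142, 165 and 231 in RS cells, against 144, 157 and 183 in RR cells, with overlap and a log2 change of 0.07 (SE 0.11).

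The remaining bright members lay between these ends. The cyclins Ccni and Ccng2 changed by 0.49 and 0.40, the kinase Bmp2k by 0.49, Abraxas1, which bridges the BRCA1-A repair complex, by 0.51, the centriole protein Cep135 by 0.38, Chic2 by 0.39 and Aasdh by 0.08. Anxa3, an annexin, had signals of 98.4, 137 and 162 in RS cells, against 53.4, 94.6 and 155 in RR cells. The lines overlapped, at 0.35 (SE 0.17), and its weaker probe sets gave -0.17, 0.06 and 0.02.

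The dim members were mixed. Of 13, 8 had a positive and 5 a negative change, 5 were called higher, where 9.00% of dim genes were, and 2 were called lower, where 7.41% were. The median log2 change was 0.18 with 16 added to the signals and 0.32 with 1 added. Slc4a4, a sodium bicarbonate cotransporter, had signals of 96.4, 113 and 136 in RS cells, against 23.5, 35.7 and 58.1 in RR cells. Those arrays did not overlap, the log2 change was 1.28 (SE 0.16), and a second probe set gave 0.78.

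Helq, a DNA repair helicase, changed by 0.28, Mob1b of the Hippo pathway by 0.65, at a mean signal of 10.1, and Rufy3, a regulator of lysosome transport and cell polarity, by 0.67. Parm1, a mucin-like membrane protein, was the other member called lower. Its signals were 37.3, 39.4 and 61.8 in RS cells, against 57.0, 74.2 and 109 in RR cells, with a log2 change of -0.69 (SE 0.13). Only replicate 2 of the RS arrays reached the RR range. Antxr2, a receptor for matrix proteins, had signals of 33.9, 53.2 and 58.4 in RS cells, against 22.9, 42.5 and 48.6 in RR cells, with overlap, at 0.24 (SE 0.14), and both of its other probe sets gave -0.05 at mean signals of 3.71 and 3.49. The matrix protein Fras1, at a mean signal of 3.91, changed by -0.03.

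The members nearest to the signal cut of 100 had positive changes on both sides of it. Just inside it was Kit, with a mean signal of 113 and a change of 0.51, and Anxa3, with 116 and 0.35. Just outside was Sdad1, with 97.9 and 0.83, and Rufy3, with 96.4 and 0.67.

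**Figure D3:**
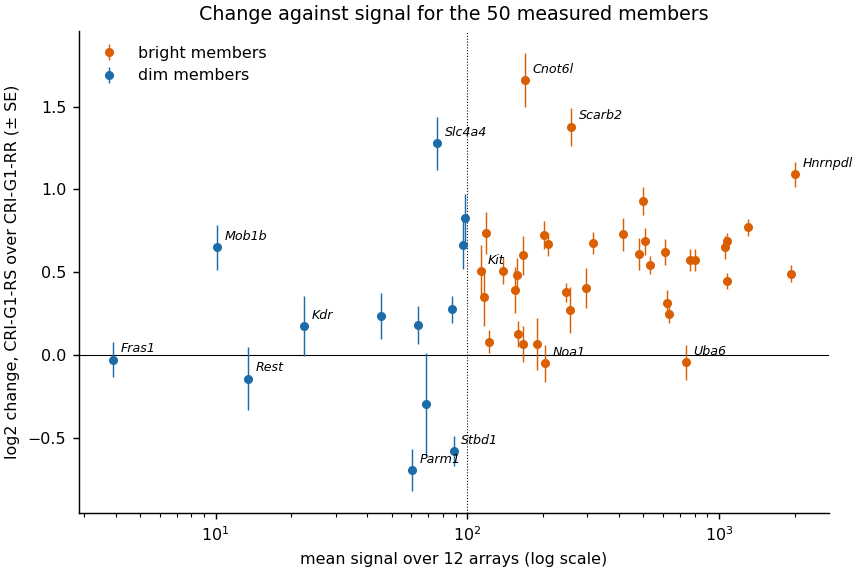
Log2 change (CRI-G1-RS over CRI-G1-RR, bars ± SE) against the mean signal over 12 arrays (log scale) for the 50 measured members, with the cut at 100 dotted. Bright members (orange) lie between -0.05 and 1.66 and 35 of 37 are above 0; dim members (blue) lie on both sides, down to Parm1 and Stbd1.

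Of the 23 members with several probe sets, 6 had changes of both signs among them, namely Antxr2, Anxa3, Clock, Exoc1, Hnrnpdl and Uba6. Where a member had at least 2 bright probe sets, which 8 did, these had the same sign in 6.

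The stretch from Abraxas1 to Chic2 in the gene order of GRCr8 also holds 70 measured genes that are not listed, 16 of them bright. Over all 70 the median log2 change was -0.02, with 32 positive and 38 negative, 17 called higher and 11 lower. Of all genes, 21.0% were called higher and 18.3% lower. The 16 bright ones had a median of 0.44, with 10 called higher and 5 lower, where 28.6% and 25.2% of all bright genes were. The 54 dim ones had a median of -0.04, with 7 called higher and 6 lower, where 9.00% and 7.41% of all dim genes were. Since the members were chosen for being higher, the genes left unlisted cannot be set against them as a test. Among all 53 bright genes of the stretch, 39 were called higher and 5 lower, with a median of 0.52.

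The unlisted genes include changes larger than those of the members, in both directions. Cracd, a dim gene whose product regulates actin, had signals of 96.2, 111 and 131 in RS cells, against 6.50, 19.5 and 44.3 in RR cells, with a log2 change of 1.76. The kinase gene Cdkl2 changed by 1.29 and the ADP-ribosyltransferase gene Art3 by 1.26. In the other direction Epha5, an ephrin receptor, had signals of 4.73, 7.85 and 15.7 in RS cells, against 79.7, 85.9 and 110 in RR cells, at -2.08. Ugt2b7, a UDP-glucuronosyltransferase, had 74.5, 92.1 and 109 in RS cells, against 293, 385 and 563 in RR cells, at -1.96. Igfbp7, an insulin-like growth factor binding protein, had 70.0, 84.0 and 123 in RS cells, against 326, 350 and 528 in RR cells, at -1.95. Of these 6 genes, Art3 alone had overlapping arrays between the lines, and the stretch held genes that were lower without overlap among those that were higher.

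The higher signals did not end at the listed genes. Of the 10 bright genes just before Abraxas1, all 10 were called higher, with a median log2 change of 0.76. Of the 10 just after Chic2, 9 were called higher, with a median of 0.44. Over all bright genes, 28.6% were called higher. The ends of the stretch were chosen on this contrast, so the flank counts are a description and no test. The widest changes in these flanks were Ociad2 at 1.34, the islet transcription factor Nkx6-1 at 1.31 and the volume-regulated anion channel subunit Lrrc8c at 1.28, and the narrowest were Slc10a4 at 0.27, Klhl8 at 0.28 and Sgcb at 0.31.

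Going further out, the 24 bright genes between the first measured gene of the chromosome and the stretch had a median of 0.69. Of these, 23 were called higher, where 28.6% of all bright genes were. The 203 bright genes beyond the stretch had a median of 0.07. In successive windows of 20 bright genes, a division made after the values were seen, the median log2 change was 0.68, 0.59, 0.63, 0.39, 0.30 and 0.11 over the first 6 windows and lay between -0.23 and 0.12 over the other 8. Members fell in windows 2, 3 and 4. Within the block, the 23 bright members from Abraxas1 to Utp3 had a median of 0.62 and the 13 from Polr2b to Chic2 one of 0.39. Uba6, at -0.04, lies between these parts and is in neither.

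Elsewhere in the genome, 410 windows of the same size had medians of -1.17 to 0.71. Of these, 2 reached the 0.59 of the second window here, both on chromosome 1. They ran from Tead1 to Thumpd1 at 0.71 and from Prpf19 to Cemip2 at 0.69. The fourth window, which holds the most members (14), was at 0.39. The next highest windows elsewhere, on chromosomes 8, 2 and 4, also lay above that, at 0.58, 0.55 and 0.50. Windows lower than these were not listed, so how many in all lay above 0.39 is not given here. The stretch was chosen on this contrast, so the ranking is a description and no test. The median over all 280 bright genes of chromosome 14 was 0.15, and those of the 20 other chromosomes lay between -0.25 and 0.24.

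**Figure D4:**
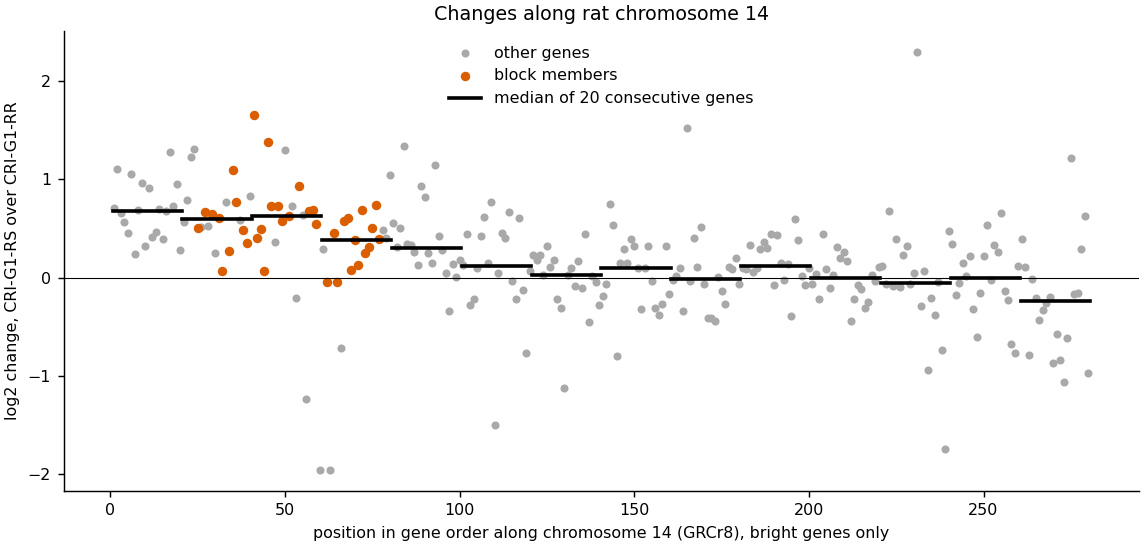
Log2 change (CRI-G1-RS over CRI-G1-RR) of the 280 bright genes of chromosome 14 in gene order, with the members in orange, other genes in grey and the median of each 20 consecutive genes as a black line. The medians are 0.68 at the left end and 0.30 in the fifth window, and between -0.23 and 0.12 beyond the sixth, and a few grey genes within the stretch lie below -1.

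Since many members work as subunits, the genes they work with were examined as well, in 21 lists that hold 222 measured genes outside the stretch. The lists name known partners and were written with earlier results of these data known. Of the 222, 55 were called higher (24.8%) and 46 lower (20.7%), where 21.0% of all genes were called higher and 18.3% lower. Of the 222, 195 were bright, and 27.2% of these were called higher and 22.6% lower, where 28.6% and 25.2% of all bright genes were. The median log2 change of the 222 was -0.00. No list median reached the 0.54 of the bright members, but the members were chosen for being higher and the partners were not. That difference therefore restates the choice.

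The signal recognition particle and its receptor, which guide nascent secretory proteins to the endoplasmic reticulum, had the highest list median, 0.26. Of the 7 partners of Srp72, 4 were called higher, led by the receptor subunit Srpra at 0.81 (adjusted p = 4.6e-07) and Srp19 at 0.41 (adjusted p = 5.1e-04). Of 14 further RNA-binding proteins, 4 were called higher and 10 passed in neither direction. Hnrnpa1 at 0.41 (adjusted p = 1.9e-04) and Hnrnpc at 0.38 (adjusted p = 3.4e-04) were among the 4. Of 9 nuclear pore partners of Nup54, 3 were called higher and 6 were not called, with its channel partner Nup62 at 0.85 (adjusted p = 3.1e-07).

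Other complexes were split. Of 11 RNA polymerase II subunits besides Polr2b, 3 were called higher, with Polr2g at 0.60 and Polr2h at 0.50, and 4 lower, with Polr2l at -0.45 and Polr2f at -0.43. Of 8 COP9 signalosome subunits besides Cops4, 3 were called higher, with Cops2 at 0.47 and Cops5 at 0.25, and 2 lower, Cops6 at -0.77 and Cops8 at -0.42. For Cops2 the other probe sets opposed the brightest, and the median over all of them was -0.23. Of 11 CCR4-NOT genes besides Cnot6l, 2 were called higher, Cnot11 at 0.57 and Cnot1 at 0.25, and 2 lower, Cnot2 at -0.98 and the associated Btg1 at -0.42.

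MuvB and DREAM genes, partners of Lin54 in cell cycle control, had 1 of 10 called higher, E2f5 at 0.68, and 3 lower, with Tfdp2 at -0.92 (0.040 as the median of its probe sets) and Rbl1 at -0.55. Of 9 COPII genes, 3 were called higher, with Sec24c at 0.32 and Sec24b at 0.29 (-0.13 as the median of its probe sets, and adjusted p = 0.062 with the replicate number as a block), and Sec16a lower at -0.30. Golgi tethering had 1 of 10 higher, the syntaxin Stx5 at 0.49, and 3 lower, with Gorasp2 at -0.51 and Gorasp1 at -0.41. Of 7 exocyst subunits, Exoc7 was called higher at 0.34 and Exoc6 lower at -0.47.

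Metabolic lists also held changes in both directions. Purine synthesis had 3 of 8 called higher, with Gmps at 0.53 and Prps2 at 0.49, and 2 lower, Adsl at -0.44 and Adss2 at -0.21. Nucleoside salvage had 1 of 9 higher, Uck2 at 0.43, and 4 lower, with Dguok at -0.48 and Slc29a1 at -0.45, opposite to Dck. Coenzyme Q synthesis had 2 of 11 higher, Coq3 at 1.02 (adjusted p = 1.3e-06) and Coq7 at 0.76 (adjusted p = 9.4e-07), and 3 lower, with Pdss2 at -0.49 and Coq10a at -0.34. Dolichol and N-glycosylation had 4 of 15 higher, with Nus1 at 0.86 and Alg2 at 0.52, and 5 lower, with Alg8 at -1.03 and Dolk at -0.65.

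In the circadian clock, partners of Clock went both ways. Per2, a repressor of Clock and Bmal1, had signals of 255, 284 and 355 in RS cells, against 509, 611 and 680 in RR cells, a log2 change of -1.04 (adjusted p = 1.1e-06). Cry1, which acts with it, had 109, 130 and 147 in RS cells, against 215, 292 and 354 in RR cells, at -1.08 (adjusted p = 1.1e-05). Neither gene overlapped between the lines. Of the 14 clock genes, 4 were called higher, with Bhlhe41 at 0.40 and Nr1d2 at 0.39, and 3 lower.

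Rest, weakly measured itself, had partners that differed strongly. Rcor2, a relative of the Rest corepressor CoREST, had signals of 171, 195 and 319 in RS cells, against 12.8, 18.4 and 29.9 in RR cells, at 2.70 (adjusted p = 8.9e-08). This was the widest change among all 222 partners, and the lines did not overlap. Of 10 corepressor genes, 4 were called higher, with the histone methyltransferase Ehmt2 at 0.69, and 1 lower, Sin3b at -0.58. Of 17 neuronal genes that Rest represses, 6 were called higher, with Gjd2 at 1.00 (adjusted p = 8.8e-06) and Stmn2 at 0.74 (adjusted p = 4.0e-04), and 2 lower, Mapk8ip1 at -0.21 (adjusted p = 0.049) and Snap25 at -0.19 (adjusted p = 0.022). Neither of these 2 passed with the replicate number as a block (adjusted p = 0.076 for Mapk8ip1 and 0.052 for Snap25), and Mapk8ip1 also missed the threshold with a pseudocount of 1 (adjusted p = 0.062) and without any 1 of 9 single arrays.

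The ligands and coreceptors of Kit, Kdr and Pdgfra were mostly not called, with 1 of 15 higher and 3 lower. Kitlg, the ligand of Kit, had signals of 55.1, 69.8 and 72.4 in RS cells, against 128, 180 and 232 in RR cells, at -1.24 (adjusted p = 1.5e-06). It went down without overlap where the signal of its receptor was higher. Nrp1 changed by -0.63, Pdgfa by -0.62 and the very weak Pdgfc by 0.62 (adjusted p = 0.025). Pdgfc missed the threshold without replicate 1, 2 or 4 of the RS arrays (adjusted p = 0.051, 0.054 and 0.057).

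The last lists belong to Uba6 and Rchy1, to the lysosome and to DNA repair. Of 8 genes of ubiquitin-like activation and p53 degradation, 3 were called higher, with Nae1 at 0.44 and Uba1 at 0.22 (adjusted p = 0.093 with deposited scaling alone, and 0.057 to 0.068 without RR replicate 1, 4 or 6), and 1 lower, the p53 ligase Mdm2 at -1.11 (adjusted p = 1.1e-08). Of 10 lysosomal genes, 1 was called higher, the glucosidase Gaa at 0.59, and 4 lower, with Gusb at -0.39 and Asah1 at -0.32, where Scarb2 was at 1.38. Asah1 missed the threshold without RR replicate 2, 4 or 5 or RS replicate 2 or 6 (adjusted p = 0.052 to 0.063). Of 9 repair genes, Xrcc2 was called higher at 0.95 (adjusted p = 1.1e-06), and 2 were called lower, Brca1 at -0.32 and Rad51b at -0.23.

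**Figure D5:**
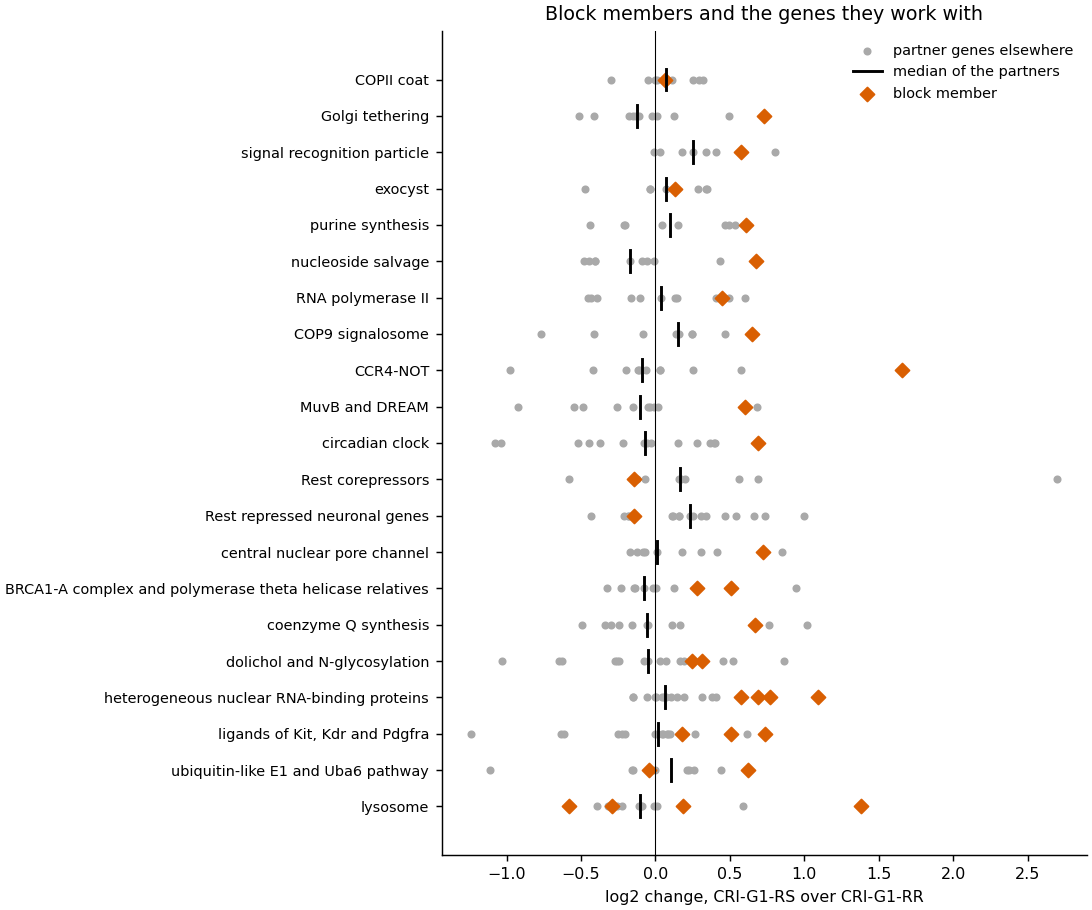
Log2 change (CRI-G1-RS over CRI-G1-RR) of the 222 partner genes in 21 lists (grey points, median as a black bar) and of the block member of each list (orange diamonds). The bars stay between -0.17 and 0.26, and the diamonds lie right of the bar in most lists but not for Sec31a, Rest, Uba6, Stbd1 and Naaa. The members were chosen for being higher in CRI-G1-RS, so the side of most diamonds restates that choice.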

How the data were processed

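RNA of 6 CRI-G1-RS and 6 CRI-G1-RR samples was measured on 1 array each. The authors deposited linear signal intensity values, 1 for each of 31099 probe sets, with GCOS 1.4 credited in the submitters' processing notes. The 2% trimmed mean was 250.07 on the arrays to within 0.01, so these intensity values had been scaled by the authors. Log2 values from robust multi-chip averaging had been assumed; for linear ones the stated change was applied, namely quantile normalization, log2(signal + 16), and limma 3.58.1 in R 4.3.3 with line as the only term, no filter, and Benjamini-Hochberg adjustment over all probe sets. The fit was tested on simulated data. Array number limits the precision, and p-values measure the spread between passages.

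Of the probe sets, 20832 carry 1 gene symbol in the platform annotation, 436 several and 9831 none, and genes were named from the first kind. Of 14218 genes, 14162 were placed in the gene order of RefSeq build GRCr8, from which the promoter windows also come.

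The members and all lists were chosen with earlier results of these data known. Every member is given by range or count, with array values for the 6 bright members of largest and the 4 of smallest change, Kit, Kdr, Pdgfra, Rest, Clock, Ppat and members whose probe sets disagree, and up to 2 partners in each direction are named per list. Stbd1, Parm1 and Slc4a4 were added after their values were seen, as were the functional groups and the chromosome windows. Alternatives were deposited scaling alone, a pseudocount of 1, signals of at least 100 only, all probe sets of a gene, no cross-hybridising probe sets, a replicate block, an intensity trend, array weights, other signal cuts and leaving out each array. Detection calls and protein sequences were not used here.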

Additional observations from a re-analysis of the deposited data

Results flagged for a closer look

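Within each line, the array farthest from the rest was compared with the spread of its 6 arrays, as its gap to the nearest array over the whole range (Dixon's ratio). Of 100 such groups over the 50 measured members, 8 passed the critical value of that ratio, where chance gives about 1 in 20. Replicate 2 of CRI-G1-RS accounts for 4 of them. It was the highest array for Parm1 (ratio 0.883), with a signal of 61.8 beside 37.3 to 39.7 on the other 5 arrays. It was the lowest for Kit (ratio 0.677), at 81.3 beside 134 to 175, for Ppat (ratio 0.678), at 444 beside 584 to 667, and for Uba6 (ratio 0.677), at 522 beside 727 to 847. Without this array the median log2 change of the bright members was 0.59 in place of 0.54.

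The other CRI-G1-RS flag was Srd5a3 in replicate 6 (ratio 0.626), at 656 beside 693 to 717. In CRI-G1-RR cells, Naaa was lowest in replicate 5 (ratio 0.780), at 17.9 beside 75.2 to 112, Srp72 in replicate 4 (ratio 0.649), at 571 beside 629 to 678, and Cep135 in replicate 2 (ratio 0.676), at 199.99 beside 210.02 to 215. The causes of these gaps were not tested.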

How the results depend on the processing

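The count of bright members called higher, 29 in the values reported, was 27 to 29 when single arrays were left out and 27 with the replicate number as a block. The number gave no visible pairing of the arrays. Deviations of same-numbered arrays correlated at -0.06 to 0.08, and 1 of 6 CRI-G1-RS arrays correlated best with its own number. Over all combinations of arrays of the different lines the range was -0.08 to 0.09, so these values cannot show which passages were collected together. The bright median of 0.54 was also 0.54 with that replicate block, 0.61 with a signal cut of 200, and 0.52 to 0.59 with single arrays left out. The dim median of 0.18 was 0.32 with a pseudocount of 1, 0.28 with a cut of 200, and 0.14 to 0.26 with single arrays left out. The dim members called higher, 5 in all, were 1 with a cut of 50 and 12 with a cut of 200, since the cut decides which members are dim. The median of the unlisted bright genes, 0.44, was 0.51 without cross-hybridising probe sets, 0.29 with a cut of 50 and 0.33 with a cut of 200. The flanking median of 0.56 was 0.61 with a pseudocount of 1, 0.50 with a cut of 50 and 0.69 with a cut of 200.

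Partner genes called were 51 to 57 higher and 43 to 48 lower with single arrays left out, beside 55 and 46. With the median over all probe sets of a gene, Cops2 (-0.23), Sec24b (-0.13) and Tfdp2 (0.040) changed sign. Of 798 counts over the 21 lists under the alternatives, 37 moved by more than 1.5 times, all of them counts of 0 to 2 genes. Exocyst genes called higher, 1 in all, were 2 with array weights, with deposited scaling alone and with signals of at least 100 only, and 1 to 2 with single arrays left out. Ligand genes called higher, 1 in all, were 0 with signals of at least 100 only and 0 to 1 with single arrays left out. Rest corepressors called lower, 1 in all, were 2 with deposited scaling alone, an intensity trend, and signals of at least 100 only. Neuronal genes repressed by Rest called lower, 2 in all, were 1 with a pseudocount of 1, 0 with a replicate block, 1 without cross-hybridising probe sets, and 1 to 2 with single arrays left out. Nuclear pore genes called lower were 1 with array weights, an intensity trend, signals of at least 100 only, and without cross-hybridising probe sets, and 0 to 1 with single arrays left out. RNA-binding partner genes called lower were 1 with array weights, an intensity trend, and signals of at least 100 only. They were 0 to 2 with single arrays left out. Repair genes called lower, 2 in all, were 1 with signals of at least 100 only, and genes of the Uba6 list called lower, 1 in all, were 2 with that setting and with an intensity trend. The causes of these moves were not tested. Of 986 values for single members under the alternatives, 973 stayed within 1 SD of the reported value.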

Other observations

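Gene families that lie inside the stretch but are not listed showed values of their own, and were picked out after the values were seen. Of the neighbouring chemokine genes, whose products attract T cells through the receptor Cxcr3, Cxcl9 had signals of 81.3, 120 and 182 (lowest, median and highest array) in CRI-G1-RS cells, against 29.7, 44.5 and 61.7 in CRI-G1-RR cells, without overlap. Cxcl11 had 222, 243 and 257 in CRI-G1-RS cells, against 139, 186 and 203 in CRI-G1-RR cells, also without overlap. Cxcl10 had 42.0, 54.1 and 79.8 in CRI-G1-RS cells, against 65.1, 76.3 and 78.8 in CRI-G1-RR cells, and overlapped. The log2 changes were 1.21, 0.36 and -0.38, so these neighbours did not share a direction.

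The stretch also held 8 measured glucuronosyltransferase genes, a family that acts on steroids, bile acids and drugs, of which 3 were called lower in CRI-G1-RS cells. The other 5, at mean signals of 2.37 to 18.6, had log2 changes of -0.28 to 0.05 and were not called. Beside Ugt2b7, Ugt2b35 had signals of 2.66, 27.1 and 35.2 in CRI-G1-RS cells, against 78.2, 103 and 113 in CRI-G1-RR cells. Ugt2b10 had 14.1, 27.1 and 39.1 in CRI-G1-RS cells, against 88.0, 103 and 139 in CRI-G1-RR cells. The log2 changes were -1.60 for Ugt2b35 and -1.55 for Ugt2b10, without overlap. Near-identical members of this family may share probes. Gc, the vitamin D-binding protein, had signals of 1391, 1910 and 2439 in CRI-G1-RS cells, against 4145, 4411 and 5304 in CRI-G1-RR cells, at -1.23.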
